A study of Mus musculus with 4 samples.

Results

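Gene levels were compared between a mouse brain organoid section treated with BMS961 and BMS641, agonists of the retinoic acid receptors gamma and beta, and a section treated with all-trans retinoic acid (ATRA), which activates all 3 receptors. The level of a gene was its mean signal over every spot of a section, scaled to ppm (parts in 1000000) of the signal of all genes there. Genes listed in both deposited tables and reaching 5 ppm in at least 1 of these sections were compared, which gave 13732 of the 22218 genes listed anywhere in the series. Of the 20174 genes in both tables, 6442 stayed under 5 ppm in both. The last gene included, Tmem35b, reached 5.0007 ppm, and the first left out, Atp6v0a2, reached 4.9989 ppm.

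The organoids came from embryonic stem cells that carry CARLIN, a lineage-recording barcode system, together with Cas9. All groups were taken through embryoid bodies, neural induction and Matrigel, then kept in a maturation medium whose B27 supplement lacked vitamin A. From day 9 that medium held ATRA at 1 µM, BMS961+BMS641 at 0.1 µM, the RAR alpha agonist BMS753 at 1 µM, or B27 with vitamin A (VitaminA), until the organoids were sectioned at 3 months. Whether 0.1 µM is the concentration of each ligand or of the pair is not stated in the labels. The doses of the compared treatments therefore differ, and dose and receptor selectivity cannot be told apart. Each treatment is represented by 1 section from 1 stem cell line, and several organoids shared a mold. No difference below has a replicate check, and none was tested.

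Retinoic acid receptors (RARs) bind DNA as partners of retinoid X receptors (RXRs), mostly at paired copies of a short hexamer. Without ligand they recruit corepressors, and with ligand they exchange them for coactivators. In the embryonic nervous system retinoic acid patterns the hindbrain and spinal cord through Hox genes and favours neuronal differentiation. It is made by aldehyde dehydrogenases and broken down by the CYP26 enzymes, whose genes are themselves retinoic acid targets.

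The elements of 2 textbook retinoic acid targets are shown because the receptors compared here act through such sequences. Both windows are the 250 bases before the RefSeq start, on the gene's strand, in GRCm38.p6, and capitals mark a direct repeat with a spacer of 5 bases. For Rarb, the receptor beta gene, the window is chr14:16575477-16575726 on the minus strand, and the repeat runs from -53 to -37 relative to the start. For Cyp26a1, a retinoic acid hydroxylase, it is chr19:37697558-37697807 on the plus strand; the repeat lies on the opposite strand, from -32 to -16.
Rarb: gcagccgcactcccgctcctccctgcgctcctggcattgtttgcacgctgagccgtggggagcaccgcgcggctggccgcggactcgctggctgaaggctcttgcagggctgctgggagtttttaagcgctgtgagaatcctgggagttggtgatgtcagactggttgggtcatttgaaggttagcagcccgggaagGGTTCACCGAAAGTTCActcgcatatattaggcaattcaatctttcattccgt
Cyp26a1: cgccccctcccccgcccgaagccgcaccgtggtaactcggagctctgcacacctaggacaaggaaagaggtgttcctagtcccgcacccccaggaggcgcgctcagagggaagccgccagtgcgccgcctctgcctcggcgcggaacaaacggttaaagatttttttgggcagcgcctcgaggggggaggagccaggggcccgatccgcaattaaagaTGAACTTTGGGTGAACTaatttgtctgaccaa

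Neither gene differed much between the sections. Rarb was at 152 ppm with ATRA and 153 ppm with BMS961+BMS641, a log2 ratio of 0.01, and at 178 ppm in VitaminA and 187 ppm in BMS753. All log2 ratios below are of the BMS961+BMS641 level over the ATRA level, with 1 ppm added to each, so a positive value means more signal with BMS961+BMS641. Where 1 level is set against another with no section named, the BMS961+BMS641 level comes first. Cyp26a1 stayed under the 5 ppm minimum, at 1.74 ppm with ATRA and 2.81 ppm with BMS961+BMS641. Repeats of this kind were rare in the 300-base windows searched, 250 bases before to 50 after the start. The half-sites accepted were the consensus AGGTCA, the common variant AGTTCA, which the Rarb element holds, the variant GGGTCA and lastly GGTTCA, which is also in Rarb. Pairs of them with a spacer of 5, on either strand, were found in 7 of 10790 compared genes with a RefSeq promoter, 0.0649%. None of the 672 such genes at least 4-fold higher and none of the 571 at least 4-fold lower had one. With a spacer of 2 there were 11 matches, of which 1 was among the higher genes (Slc7a7) and 0 among the lower. With a spacer of 1 there were 25, of which 1 was among the higher genes (a predicted transcript) and 1 among the lower (Tmem248). A match is a string of letters, not a known binding site.

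The ATRA section had 593 spots and the BMS961+BMS641 section 365. A spot is a small area of tissue that can hold several cells, so fewer cells of a kind and less RNA per cell cannot be told apart. The values are signals named as quantile normalised within each section, though their sum still differed between spots. Without counts, the depth per spot is not known. Within each spot a long run of the lowest positive values followed the order of genes in the file, apart from a single spot in each section. A gene was taken as detected in a spot when it stood above that lowest class, which held 7.58% of the signal with ATRA and 6.75% with BMS961+BMS641. The median spot had 3388 detected genes with ATRA and 4462 with BMS961+BMS641, and the part of this gap in shares of spots was not tested. Defining markers of the labelled brain tissue were checked. The neuronal genes Rbfox1 (750 ppm with ATRA, 523 ppm with BMS961+BMS641) and Rbfox3 (232 and 199 ppm) were abundant in both sections. So was the progenitor gene Msi2 (462 and 435 ppm). Other markers were lower. The progenitor factor genes Sox1 and Sox2 were at 0 or not listed in both sections, the astrocyte filament gene Gfap was at 3.16 ppm with ATRA and 0.451 ppm with BMS961+BMS641, and Tubb3, a neuronal tubulin, was at 24.2 ppm with ATRA and 24.0 ppm with BMS961+BMS641.

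Most genes had similar levels in both sections. The median log2 ratio was 0.04, the quartiles were -0.38 and 0.57, and 9985 genes, 72.7%, were within 2-fold. Many compared genes were rarely detected, 32.6% of them in 0 to 10% of ATRA spots and 21.7% in 0 to 10% of BMS961+BMS641 spots. How much of the similarity lies in values of the lowest class was not tested. The ratio was above 0 in 7263 genes (52.9%) and below 0 in 6469 (47.1%), the shares to set beside counts of list members below. Around the core of genes within 2-fold, 843 genes (6.14%) were at least 4-fold higher with BMS961+BMS641 and 728 (5.30%) at least 4-fold lower. The higher genes together took 14.6% of the signal of the BMS961+BMS641 section and 1.51% of that of the ATRA section. The lower genes took 1.77% and 19.6%.

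**Figure D1:**
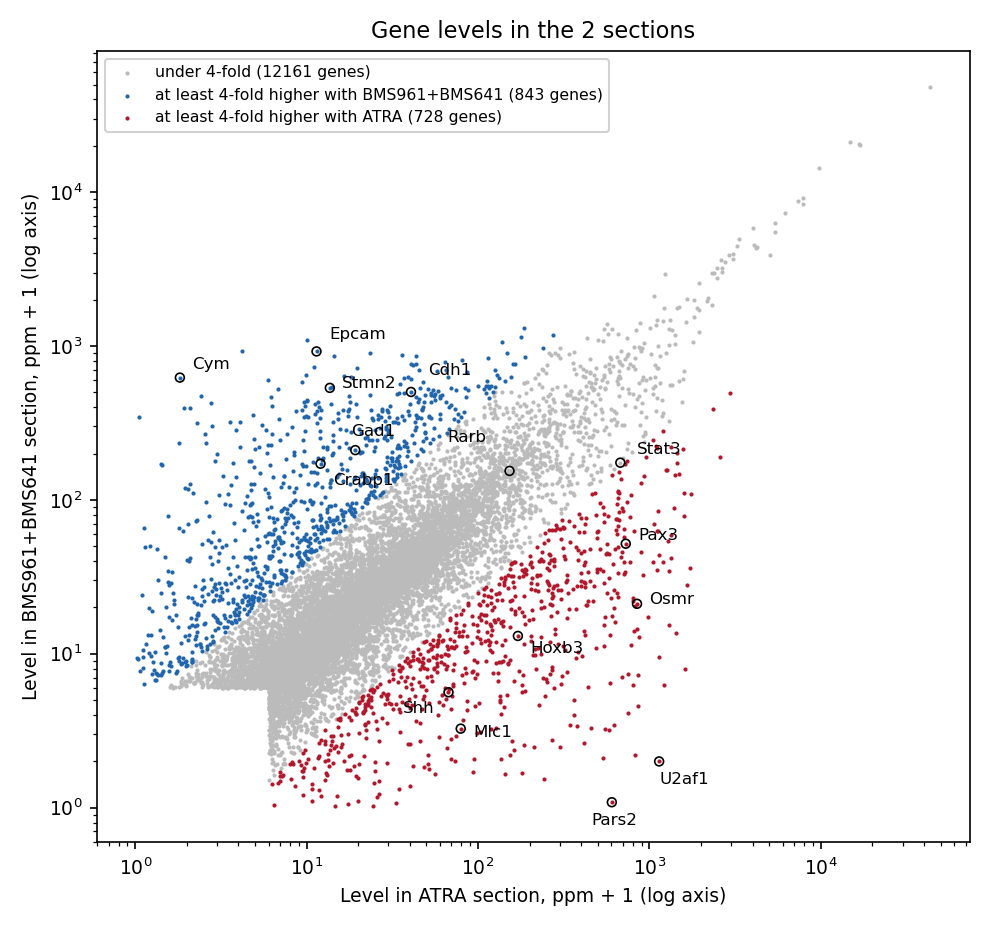
Level of each of the 13732 compared genes in the ATRA section (horizontal, log axis, ppm + 1) and the BMS961+BMS641 section (vertical, log axis, ppm + 1), 1 point per gene. The 843 genes at least 4-fold higher with BMS961+BMS641 are blue, the 728 at least 4-fold lower are red, and circled genes are described in the text.

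The 20 genes named first, the 10 highest and the 10 lowest ratios, were each detected in most spots of one section and in few spots of the other, up to 16.5% for Dlk1 with ATRA and 15.3% for Fabp12 with BMS961+BMS641. Cym, the gene of the milk-clotting protease chymosin, was at 622 ppm with BMS961+BMS641 and 0.82 ppm with ATRA, a log2 ratio of 8.42, and was detected in 98.4% of spots against 1.69%. VitaminA and BMS753 had 1.45 and 0.972 ppm of it. Grpel2, a cochaperone of mitochondrial protein import, was at 929 ppm against 3.21 ppm (7.79). Riok1, a kinase of small ribosomal subunit maturation, was at 473 ppm against 1.43 ppm (7.61). Irgm2, an interferon-inducible GTPase, was at 396 ppm against 1.07 ppm (7.58), and the mast cell protease gene Cpa3 at 424 ppm against 1.77 ppm (7.26). Dlk1, an imprinted gene for a non-canonical Notch ligand, was at 1091 ppm against 9.09 ppm (6.76), with 29.9 ppm in VitaminA and 44.8 ppm in BMS753. The other 4 of the 10 highest ratios were those of Mtag2 (8.36), Wfdc17 (7.69), Sowahc (7.12) and FAM92A (6.91), a symbol kept as the file gives it.

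The genes at the other end showed the mirror image. U2af1, the splicing factor subunit that reads the end of introns, was at 1139 ppm with ATRA, 0.996 ppm with BMS961+BMS641, 3.43 ppm in VitaminA and 0.564 ppm in BMS753. Its log2 ratio was -9.16, and it was detected in 98.1% of ATRA spots and 2.47% of BMS961+BMS641 spots. Pars2, the mitochondrial prolyl-tRNA synthetase, was at 603 ppm with ATRA against 0.0841 ppm (-9.12). Lsm14b, an RNA-binding protein gene, was at 1603 ppm with ATRA against 6.96 ppm (-7.66). Psen2, which encodes the presenilin 2 subunit of gamma-secretase, was at 1218 ppm with ATRA against 5.22 ppm (-7.62). Fam183b (-8.54), the fatty acid-binding protein gene Fabp12 (-7.57), Manbal (-7.51), the sialic acid esterase gene Siae (-7.51), the cytokine gene Cklf (-7.50) and the phospholipase gene Pla2g4c (-7.42) made up the 10 lowest. Each of these 10 was at least 4-fold above all 3 other sections in the ATRA section.

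About as many differences as not set 1 of the compared sections apart from the whole series. Of the 842 higher genes that all 4 tables list, 383 (45.5%, and 2.82% of all compared genes that the 4 tables list) were at least 4-fold above each of the other 3 sections with BMS961+BMS641, and 8 (0.0588% of all such genes) were at least 4-fold below each of the others with ATRA. Of the 725 lower genes listed in all 4, 407 (56.1%, and 2.99% of all such genes) were at least 4-fold above each other section with ATRA, and 4 (0.0294%) were at least 4-fold below each other section with BMS961+BMS641. For scale, 201 of the 13598 compared genes listed in all 4 tables stood apart in this way as high in VitaminA (1.48%) and 77 in BMS753 (0.566%), and 1 stood apart as low in each (0.00735%).

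Genes that paired the compared sections with another one were few. In 17 genes VitaminA and BMS961+BMS641 were both at least 4-fold above both ATRA and BMS753. They include Thy1, a surface glycoprotein of neurons and fibroblasts, and the Polycomb gene Cbx2. In 18 genes ATRA and BMS961+BMS641 were both at least 4-fold above VitaminA and BMS753, among them the transcription factor gene Stat3, the DNA demethylase gene Tet3, the cytokine receptor gene Il9r and the proteasome gene Psmd1. Psmd1 was at 1049 ppm with ATRA, 486 ppm with BMS961+BMS641, 45.5 ppm in VitaminA and 65.2 ppm in BMS753. VitaminA and ATRA were high together in 13 genes, BMS753 and BMS961+BMS641 in 9, VitaminA and BMS753 in 6, and ATRA and BMS753 in 3.

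The genes beyond 4-fold ranged from patchy to nearly ubiquitous in the section where they were high. Of the 843 higher genes, 336 (39.9%) were detected in at least 80% of BMS961+BMS641 spots, 241 in 50 to 80% and 266 in under 50%. Of the 728 lower genes, 279 (38.3%) were detected in at least 80% of ATRA spots, 199 in 50 to 80% and 250 in under 50%. The median higher gene was detected in 70.1% of BMS961+BMS641 spots and 11.6% of ATRA spots, and the median lower gene in 68.0% of ATRA spots and 18.9% of BMS961+BMS641 spots. Each section was also split into 4 quadrants, which describe variation within a section and are no replicates. Over all compared genes, 20.9% had all 4 BMS961+BMS641 quadrants above all 4 ATRA quadrants, and 16.1% had all 4 below. Among genes beyond 4-fold such separation, in 834 of the higher and 726 of the lower genes, and wide detection follow in large part from choosing genes by their level, so these shares are a description.

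**Figure D2:**
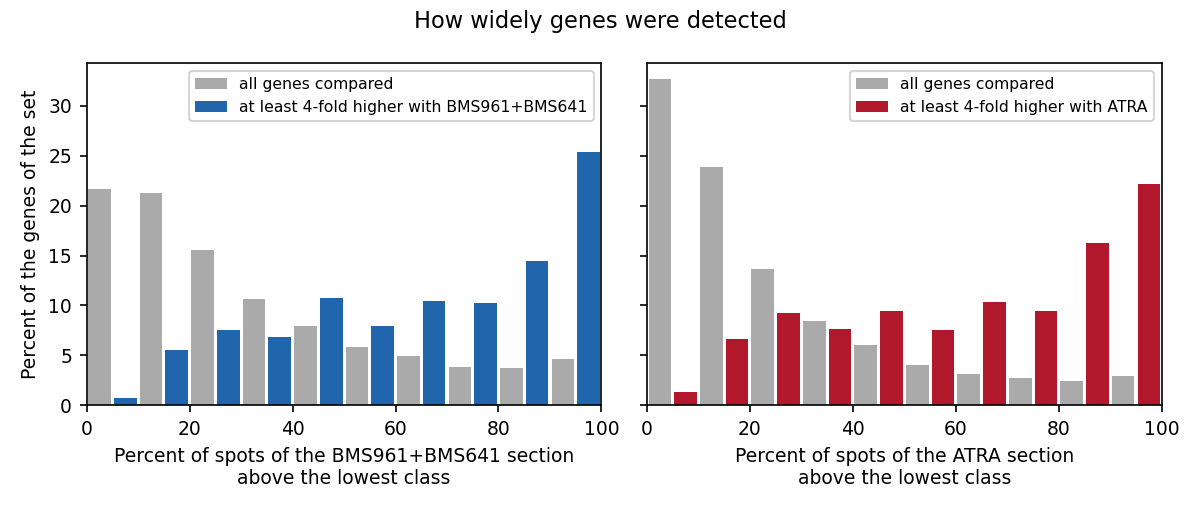
Share of genes (vertical, percent of the set) by the percent of spots in which they were detected (horizontal, in steps of 10), for all compared genes (grey) and for genes at least 4-fold higher in the section shown (coloured). Coloured bars are tallest at the right, where genes are detected in nearly every spot, and grey bars at the left; the coloured genes were chosen for a high level in that section, which favours wide detection.

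A smaller group differed while being present in at most 50% of the spots of either section. On the BMS961+BMS641 side it was led by Tomm40, the pore of the mitochondrial outer membrane translocase, with 41.7 ppm against 0.496 ppm (4.83), and Atf4, a stress-response transcription factor, with 23.1 ppm against 0.0916 ppm (4.46). The kinetochore gene Spc25 (4.15), the chemokine receptor gene Ccr8 (4.17) and the receptor kinase gene Ltk (4.37) were also among these 10, with Camkv (4.48), Glmp (4.34), Ogfr (4.24), Ints12 (4.15) and Zfp938 (3.95). On the ATRA side S100a14, a calcium-binding protein gene of epithelia, was at 55.0 ppm with ATRA against 0.644 ppm (-5.09), and Dmp1, a bone matrix protein gene, at 50.3 ppm with ATRA against 0.92 ppm (-4.74). The chemokine gene Ccl5 was at 23.4 ppm with ATRA against 0.0254 ppm (-4.57), and the carotenoid-cleaving enzyme gene Bco2 at 80.3 ppm with ATRA against 2.70 ppm (-4.46). Rnf112, Hax1, Zfp653, Crip3, Tspan31 and Zfp759 lay between -4.72 and -4.36. All but Camkv of these 20 genes were at least 4-fold above every other section in the section where they were high.

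The receptor genes were level or higher with BMS961+BMS641. Rara was at 38.2 ppm with ATRA and 62.3 ppm with BMS961+BMS641 (0.69), with 72.2 ppm in VitaminA and 54.2 ppm in BMS753. Rarg was at 27.2 ppm against 15.3 ppm (0.79), with 53.6 ppm in VitaminA and 34.2 ppm in BMS753. The partner gene Rxra was at 56.2 ppm against 23.2 ppm (1.24), and Rxrg at 24.6 ppm against 25.8 ppm (-0.06). For Rara, Rarg and Rxra all BMS961+BMS641 quadrants were above all ATRA quadrants, and for Rarb and Rxrg the quadrants overlapped. The ATRA section was the lowest of the 4 for Rara, Rarg and Rxra. The median over the 5 compared members of 6 was 0.69, beside 0.04 for all genes, and none was 4-fold different.

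The enzymes that make retinoic acid were close in the compared sections. Aldh1a2, a main embryonic retinaldehyde dehydrogenase, was at 16.2 ppm with ATRA and 28.5 ppm with BMS961+BMS641 (0.77), against 296 ppm in VitaminA and 41.1 ppm in BMS753. Its quadrants overlapped, as did those of Aldh1a1 (0.68), Aldh1a3 (-0.52) and Dhrs3 (0.76), a retinaldehyde reductase at 5.53 ppm against 2.86 ppm. Rdh10, the retinol dehydrogenase that supplies retinaldehyde, was at 11.0 ppm against 18.2 ppm (-0.68), with all quadrants lower. Of 7 members compared, 4 were higher and 3 lower, with a median of 0.14.

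Among carriers and degrading enzymes Crabp1 stood out. This cytoplasmic retinoic acid-binding protein gene was at 171 ppm with BMS961+BMS641, 11.0 ppm with ATRA, 8.76 ppm in VitaminA and 2.44 ppm in BMS753. The log2 ratio was 3.83, between 2.86 and 4.41 over the 16 pairs of quadrants, and 85.2% of BMS961+BMS641 spots detected it against 21.1% of ATRA spots. The hydroxylase gene Cyp26b1 was at 27.3 ppm against 16.1 ppm (0.72), with all quadrants higher, and Cyp26c1 at 10.1 ppm against 9.66 ppm (0.06). The retinol uptake receptor gene Stra6 (-0.44) had overlapping quadrants. Rbp4, which encodes the retinol carrier of blood, was under the 5 ppm minimum, at 0.537 ppm against 1.71 ppm, with 36.7 ppm in VitaminA. Over the 16 compared members of a list of 22 known retinoic acid targets, 9 were higher and 7 lower, the median was 0.09, and the single 4-fold difference was that of Pdx1, a pancreatic factor, at 7.93 ppm against 0.789 ppm (2.32). The 15 compared coregulators of nuclear receptors had a median of 0.17 and no 4-fold difference. Their range ran from the corepressor component gene Tbl1xr1 (-1.16) to the histone deacetylase gene Hdac1 (1.14).

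Hox genes of the first 4 groups, which mark hindbrain segments, were mostly lower with BMS961+BMS641. Of 5 members compared, 4 were lower, 2 of them at least 4-fold (5.30% of all compared genes were), and the median was -0.67. Hoxb3 was at 169.8 ppm with ATRA, 12.1 ppm with BMS961+BMS641, 20.5 ppm in VitaminA and 11.9 ppm in BMS753, a log2 ratio of -3.71. It was detected in 71.7% of ATRA spots and 24.9% of BMS961+BMS641 spots. Hoxd1 was at 1.11 ppm against 10.6 ppm (-2.46), and Hoxa3 (-0.53) and Hoxb4 (-0.67) had overlapping quadrants. Hoxd3 went the other way, with 108 ppm against 44.0 ppm (1.27) and no overlap of quadrants. In groups 5 to 13, 8 of 12 compared members were higher, beside 52.9% of all compared genes, and the median was 0.21. Hoxd12, a posterior Hox gene, was at 49.2 ppm against 5.39 ppm (2.97), and Hoxa10 at 7.55 ppm against 27.8 ppm (-1.75).

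Regional patterning factors differed gene by gene. Pax3, a factor of the dorsal neural tube and neural crest, was at 727 ppm with ATRA and 50.9 ppm with BMS961+BMS641, with 74.8 ppm in VitaminA and 74.5 ppm in BMS753. Its log2 ratio was -3.81, and 95.3% of ATRA spots detected it. The hindbrain segment factor Egr2 was at 68.9 ppm with BMS961+BMS641, 1.03 ppm with ATRA, 7.80 ppm in VitaminA and 1.66 ppm in BMS753 (5.11). Lmx1a, a factor of the roof plate and midbrain floor, was at 467 ppm against 83.9 ppm (2.46), and Pax7 at 215 ppm against 93.5 ppm (1.20). The list as a whole did not lean upward: 7 of 20 compared members were higher, 13 lower, and the median was -0.25.

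Neuronal genes had no common direction, and a few were well above their ATRA level with BMS961+BMS641. Stmn2, a microtubule regulator of growing axons, was at 533 ppm with BMS961+BMS641, 12.7 ppm with ATRA, 14.3 ppm in VitaminA and 40.4 ppm in BMS753. The log2 ratio was 5.29, between 5.06 and 5.80 over quadrant pairs, with 97.3% of BMS961+BMS641 spots detecting it against 20.9% of ATRA spots. Gap43, a growth cone protein gene of the same kind of neurite, was opposite, at 37.9 ppm against 156 ppm (-2.02). Elavl4 (1.85), Syn2 (1.72), Rtn1 (1.53) and Map2 (1.26) were higher than with ATRA with no overlap of quadrants, and Tubb3 (-0.01) was level. In VitaminA, Elavl4 was at 108 ppm, Rtn1 at 105 ppm and Map2 at 92.3 ppm, above their 66.2, 76.8 and 70.6 ppm with BMS961+BMS641. Syn2 was at 26.0 ppm in VitaminA, below its 55.2 ppm with BMS961+BMS641. Of 21 pan-neuronal members compared 11 were higher and 10 lower, with a median of 0.02.

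Transmitter-related lists each held 1 or a few genes with large differences. Among 19 glutamatergic members 12 were higher, beside 52.9% of all compared genes, and the median was 0.15. Receptor subunit gene Gria3 was at 284 ppm against 28.9 ppm (3.25) and Grm5 at 897 ppm against 147 ppm (2.60), while Grin2b was at 149 ppm against 306 ppm (-1.03). Among 12 GABAergic members 6 were higher and 6 lower. Gad1, which encodes the main GABA-synthesising enzyme, was at 209 ppm with BMS961+BMS641, 18.2 ppm with ATRA, 22.2 ppm in VitaminA and 41.9 ppm in BMS753 (3.45), and the interneuron factor Lhx6 was at 5.24 ppm against 11.1 ppm (-0.96). Serotonergic genes were lower in 7 of 10, with a median of -0.52 that turned to 0.20 over members of at least 20 ppm and to 0.25 by percent of spots. Within that list the receptor gene Htr2c was at 493 ppm with ATRA and 55.2 ppm with BMS961+BMS641 (-3.14), the brain tryptophan hydroxylase gene Tph2 at 55.8 ppm against 118 ppm (-1.07), and the ion channel receptor gene Htr3a at 52.4 ppm against 4.85 ppm (3.19). The cholinergic receptor gene Chrna7 was at 205 ppm with ATRA and 35.5 ppm with BMS961+BMS641 (-2.50). The 10 dopaminergic members had a median of 0.28, with Lmx1a the only 4-fold difference.

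**Figure D3:**
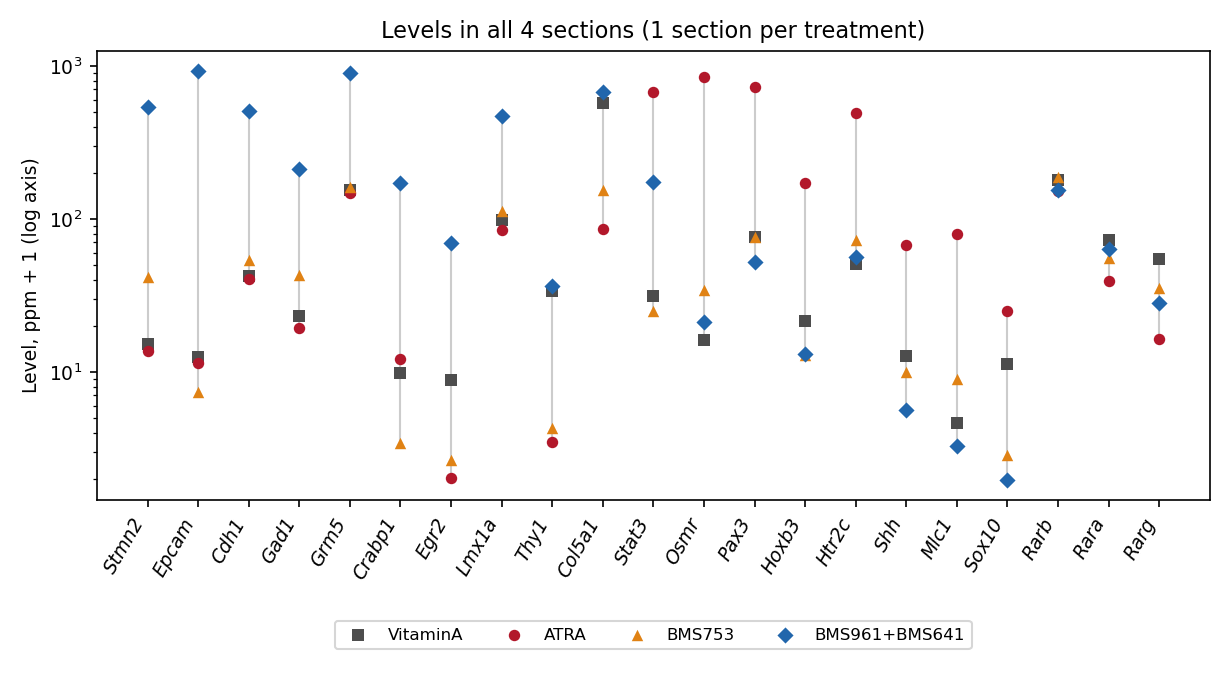
Levels (vertical, ppm + 1, log axis) of 21 genes in the 4 sections, 1 marker per section and no error bars because each treatment has 1 section. Genes from Stmn2 to Lmx1a are highest in the BMS961+BMS641 section alone, the genes from Stat3 to Sox10 are highest in the ATRA section, and Rarb is level in all 4.

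The astroglial genes compared leaned higher with BMS961+BMS641 than with ATRA, except for a few that stood high with ATRA. Of 23 members 16 were compared. Of these 11 were higher, beside 52.9% of all compared genes, and the median was 0.47. The astrocyte markers Gfap, Aqp4, S100b, Fgfr3, Aldoc, Apoe and Id4 stayed under 5 ppm in both sections. The summed level of the compared members was 500 ppm with ATRA and 651 ppm with BMS961+BMS641. It was higher in the other sections, at 806 ppm in VitaminA and 807 ppm in BMS753. The gliogenic factors Nfib (115 ppm against 30.8 ppm, 1.86) and Sox9 (26.6 ppm against 7.61 ppm, 1.68) and the enzyme gene Aldh1l1 (18.7 ppm against 5.79 ppm, 1.54) were higher with no overlap of quadrants. Mlc1, a membrane protein gene of astrocyte endfeet, was at 78.3 ppm with ATRA, 2.26 ppm with BMS961+BMS641, 3.62 ppm in VitaminA and 8.01 ppm in BMS753 (-4.60). The gap junction gene Gjb6 was also lower (-1.32), and the glutamate transporter gene Slc1a3 was level (0.03).

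The gp130 cytokine pathway, which can drive astrocyte differentiation and reactivity through the kinases of the JAK family and STAT3, differed gene by gene. The oncostatin M receptor gene Osmr was at 846 ppm with ATRA, 20.1 ppm with BMS961+BMS641, 15.1 ppm in VitaminA and 33.0 ppm in BMS753, a log2 ratio of -5.33. It was detected in 98.1% of ATRA spots. Stat3 was at 676 ppm with ATRA and 173 ppm with BMS961+BMS641, and at 30.5 ppm in VitaminA and 24.1 ppm in BMS753, so both compared sections stood above the other two (-1.96). The interferon-induced GTPase gene Gbp2 was at 2.22 ppm against 24.6 ppm (-2.99). Among the other receptors, the ciliary neurotrophic factor receptor gene Cntfr was lower (-1.02), the shared gp130 subunit gene Il6st nearly level (0.16), and the leukaemia inhibitory factor receptor gene Lifr higher at 93.6 ppm against 28.7 ppm (1.67). The adhesion receptor gene Cd44 was at 32.8 ppm against 10.7 ppm (1.53). Of 18 members 13 were higher, beside 52.9% of all compared genes, with a median of 0.43. The summed level of the list was nevertheless 695 ppm with BMS961+BMS641 and 2008 ppm with ATRA.

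Oligodendrocyte lineage genes were lower in 9 of 13 members, with a median of -0.14. Their lineage factor Sox10 was at 24.1 ppm with ATRA, 0.968 ppm with BMS961+BMS641, 10.2 ppm in VitaminA and 1.85 ppm in BMS753 (-3.67), and the myelin gene Mbp was at 39.9 ppm against 80.5 ppm, with no overlap of quadrants. The 9 neural progenitor members had a median of 0.36 and no 4-fold difference, between Sox3 (-1.07) and the RNA-binding protein gene Msi1 (1.34).

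Epithelial genes had a median of 0.88 over 12 compared members of 18, 8 of them higher, and the median was 0.17 with no filter on low values. The keratin genes Krt5, Krt14, Krt18 and Krt19, and also Cldn7 and Ovol1, stayed under 5 ppm in both sections. Epcam, an adhesion molecule gene of epithelia, was at 921 ppm with BMS961+BMS641, 10.4 ppm with ATRA, 11.5 ppm in VitaminA and 6.36 ppm in BMS753 (6.33). It was detected in 98.6% of BMS961+BMS641 spots and 20.6% of ATRA spots. The E-cadherin gene Cdh1 was at 502 ppm against 39.6 ppm (3.63), the epithelial transcription factor gene Grhl2 at 478 ppm against 52.3 ppm (3.17) and the desmosomal gene Perp at 26.5 ppm against 1.22 ppm (3.63). All 4 were at least 4-fold above every other section with BMS961+BMS641. The basal epithelial factor Trp63 was at 142 ppm against 46.0 ppm (1.60), while the keratin gene Krt8 (-0.03), the desmoplakin gene Dsp (-0.54) and the splicing regulator gene Esrp1 (-0.86) were level or lower. Krt8 was detected in 3.88% of ATRA spots and 5.48% of BMS961+BMS641 spots.

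**Figure D4:**
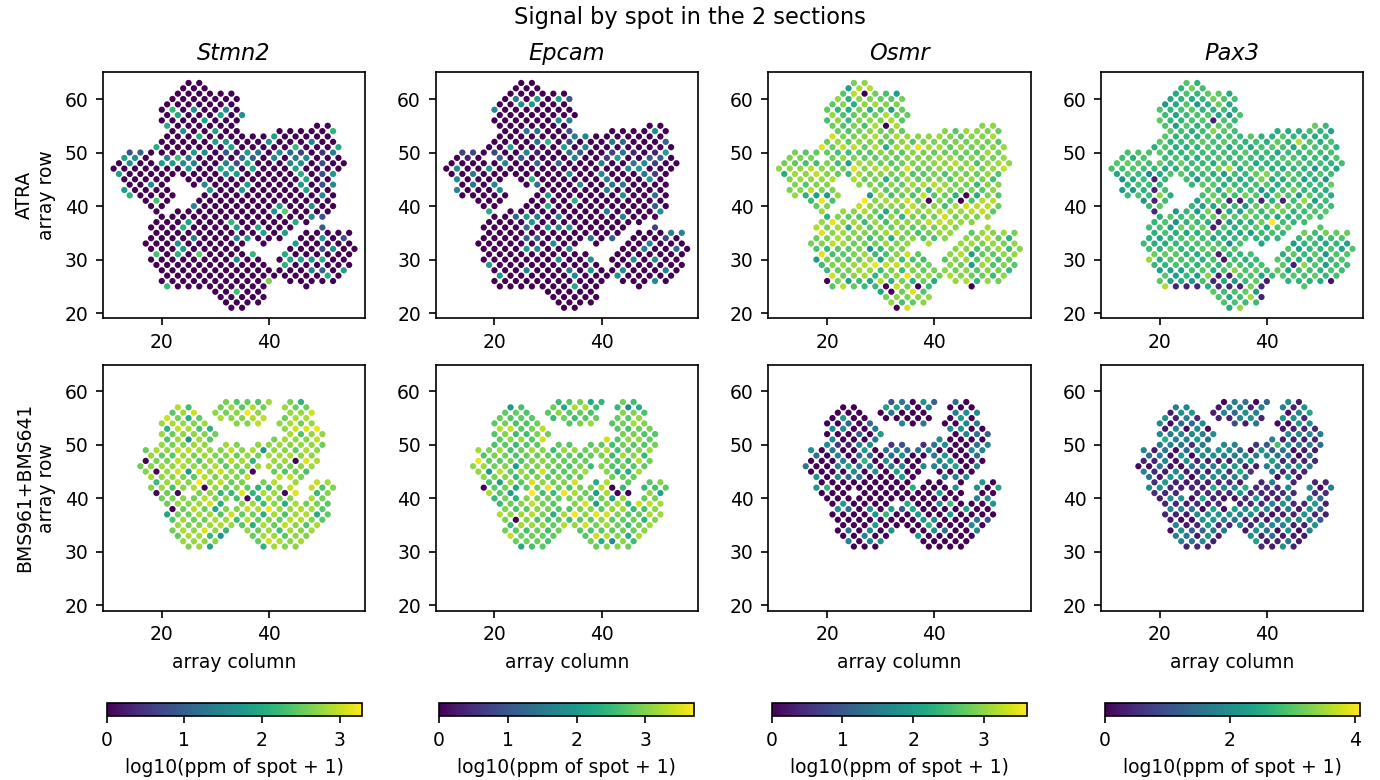
Signal of Stmn2, Epcam, Osmr and Pax3 in each spot of the ATRA section (upper row) and the BMS961+BMS641 section (lower row), as log10 of the ppm of the spot plus 1, placed by array column and row. Stmn2 and Epcam are seen in nearly every spot with BMS961+BMS641 (97.3% and 98.6% of spots), and Osmr and Pax3 in nearly every spot with ATRA (98.1% and 95.3%).

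Mesenchyme and matrix genes were higher in 14 of 18 members, beside 52.9% of all compared genes, with a median of 0.43. At least 4-fold higher were 3 and at least 4-fold lower 2, beside 6.14% and 5.30% of all compared genes. Col5a1, a fibrillar collagen gene, was at 671 ppm with BMS961+BMS641 and 85.2 ppm with ATRA (2.96), and at 573 ppm in VitaminA, with ATRA the lowest of the 4 and 152 ppm in BMS753. Fbn1, which encodes the microfibril protein fibrillin, was at 479 ppm against 48.3 ppm (3.29), and Thy1 at 35.1 ppm against 2.50 ppm (3.37). Col6a2 (-2.76) and the pericyte receptor gene Pdgfrb (-2.40) were lower. Endothelial genes were lower in 7 of 12, with a median of -0.29 that became 0.007 when each spot was scaled to the same sum. The lymphatic receptor gene Flt4 was at 11.5 ppm against 102 ppm (-3.04), the clotting factor gene Vwf at 70.8 ppm against 542 ppm (-2.92), and Tek (-1.42), Flt1 (-1.20) and Emcn (-0.95) were lower with no overlap of quadrants, while the endothelial transcription factor gene Erg was higher, at 407 ppm against 258 ppm (0.66), also with no overlap, and Kdr (0.38) and Pecam1 (0.50) had overlapping quadrants.

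Lists of cell types that a brain organoid may hold as minor or unwanted lineages showed single genes rather than common shifts. Among 10 microglial and macrophage members 3 were higher and 7 lower; Cx3cr1 was at 102 ppm against 25.2 ppm (1.98), Fcrls at 1.61 ppm against 10.8 ppm (-2.17), and P2ry12 was at 0 or not listed in both sections. Of 5 mast cell members only Cpa3 was 4-fold higher, and the histamine-forming enzyme gene Hdc was at 0.626 ppm against 6.25 ppm (-2.16). Rapsn, which clusters acetylcholine receptors in muscle, was at 604 ppm with BMS961+BMS641 and 4.94 ppm with ATRA (6.67), whereas the other 7 skeletal muscle members lay between -0.42 and 0.16. Among 9 endodermal members the hepatocyte factor gene Hnf4a was at 9.21 ppm against 83.3 ppm (-3.04), with 99.6 ppm in VitaminA. In the choroid plexus and ependyma list the ciliary dynein gene Dnah5 was at 155 ppm against 1262 ppm (-3.01), and 4 of 8 members were higher. The 5 heart members lay between -0.60 and 0.60. Only 2 erythroid genes could be compared, and the 4 adult globin genes were at 0 or not listed in both sections.

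Axon guidance genes were lower in 24 of 35 members, all of which were compared, beside 47.1% of all compared genes. The median was -0.19. At least 4-fold lower were 4 genes and at least 4-fold higher 0, beside 5.30% and 6.14% of all compared genes. The semaphorin genes Sema3c (24.5 ppm against 224 ppm, -3.14) and Sema3e (47.7 ppm against 311 ppm, -2.68) and their receptor gene Nrp1 (21.4 ppm against 137 ppm, -2.62) were lower, as was the ephrin gene Efna5 (170 ppm against 723 ppm, -2.09). The Slit receptor gene Robo2 was at 324 ppm against 1292 ppm (-1.99). The Slit ligand genes Slit1 (1.08) and Slit2 (1.26) were higher. The members summed to 8483 ppm with ATRA, 5042 ppm with BMS961+BMS641, 6321 ppm in VitaminA and 5386 ppm in BMS753.

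In the hedgehog pathway, 6 of 12 members higher, the ligand and the intracellular inhibitor were opposite. Shh was at 66.3 ppm with ATRA, 4.62 ppm with BMS961+BMS641, 11.7 ppm in VitaminA and 9.01 ppm in BMS753 (-3.58). Sufu, which restrains the GLI factors, was at 474 ppm against 54.6 ppm (3.10), the receptor gene Ptch1 at 971 ppm against 300.3 ppm (1.69), and the GLI repressor gene Gli3 at 32.2 ppm against 114 ppm (-1.79). In the Notch pathway Rbpj, the DNA-binding partner of the activated receptor, was at 208 ppm against 23.6 ppm (3.08), the ligand gene Dll1 at 9.61 ppm against 2.89 ppm (1.45), and the receptor gene Notch2 at 35.5 ppm against 70.7 ppm (-0.98), with 7 of 17 members higher. Wnt genes were higher in 20 of 30 members, beside 52.9% of all compared genes, with a median of 0.15. Of their ligand genes Wnt2 was at 30.3 ppm against 3.01 ppm (2.96) and Wnt9a at 104 ppm against 24.2 ppm (2.06).

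Of 16 pluripotency genes 8 were compared. Of these 7 were higher, beside 52.9% of all compared genes, with a median of 0.71. Nanog, Dppa3, Zfp42 and Fgf4 are among the members not compared. The compared members summed to 322 ppm with ATRA, 681 ppm with BMS961+BMS641, 653 ppm in VitaminA and 496 ppm in BMS753. Tbx3 was at 219 ppm against 24.0 ppm (3.13) and the nuclear receptor gene Esrrb at 218 ppm against 104 ppm (1.07), but Pou5f1, which encodes OCT4, was level at 7.49 ppm against 7.06 ppm (0.07). Proliferation genes were split: the kinetochore motor gene Cenpe was at 132 ppm against 15.3 ppm (3.02), the spindle checkpoint kinase gene Bub1b at 15.2 ppm against 125 ppm (-2.96), and Mki67 stood at 1.07 ppm against 1.06 ppm, under the minimum. The 14 hypoxia and glycolysis genes had a median of 0.16 and no 4-fold difference, although Pfkp (1.61) and Pfkfb3 (1.58), both of glycolysis, were higher with no overlap of quadrants.

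Subunits of single complexes also differed from one another, in the size of the ratio or in its direction. The Polycomb methyltransferase gene Ezh2 was at 32.1 ppm with BMS961+BMS641 and 189 ppm with ATRA (-2.52), whereas its partner genes Eed (-0.24) and Suz12 (-0.14) were within 2-fold. Cbx2, which reads the mark that EZH2 makes, was at 85.6 ppm with BMS961+BMS641, 6.68 ppm with ATRA, 91.0 ppm in VitaminA and 13.6 ppm in BMS753 (3.49). In the proteasome Psma6 (112 ppm against 7.48 ppm, 3.74), Psmb1 (70.6 ppm against 5.42 ppm, 3.48) and Psmb2 (18.4 ppm against 2.87 ppm, 2.33) were higher and Psmd14 (10.9 ppm against 127 ppm, -3.43) lower. U2af1 was 571-fold lower on the scale with 1 ppm added, while U2af2, its partner in splicing, was at 10.6 ppm against 6.85 ppm (0.56), and 10 of the 12 splicing factors compared were higher, with a median of 0.30. Of 26 widely expressed abundant transcripts, 24 are listed in both sections but only 10 reached the minimum and were compared. Actb, Actg1, Tuba1a, Eef1a1, Hspa8 and Pkm are among those not compared. Of the 10, 1 was at least 4-fold higher and 3 at least 4-fold lower, beside 6.14% and 5.30% of all compared genes. The elongation factor gene Eef2 was at 350 ppm against 35.1 ppm (3.28), and Tpt1 (-3.36) and Calm2 (-2.03) were among the lower.

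**Figure D5:**
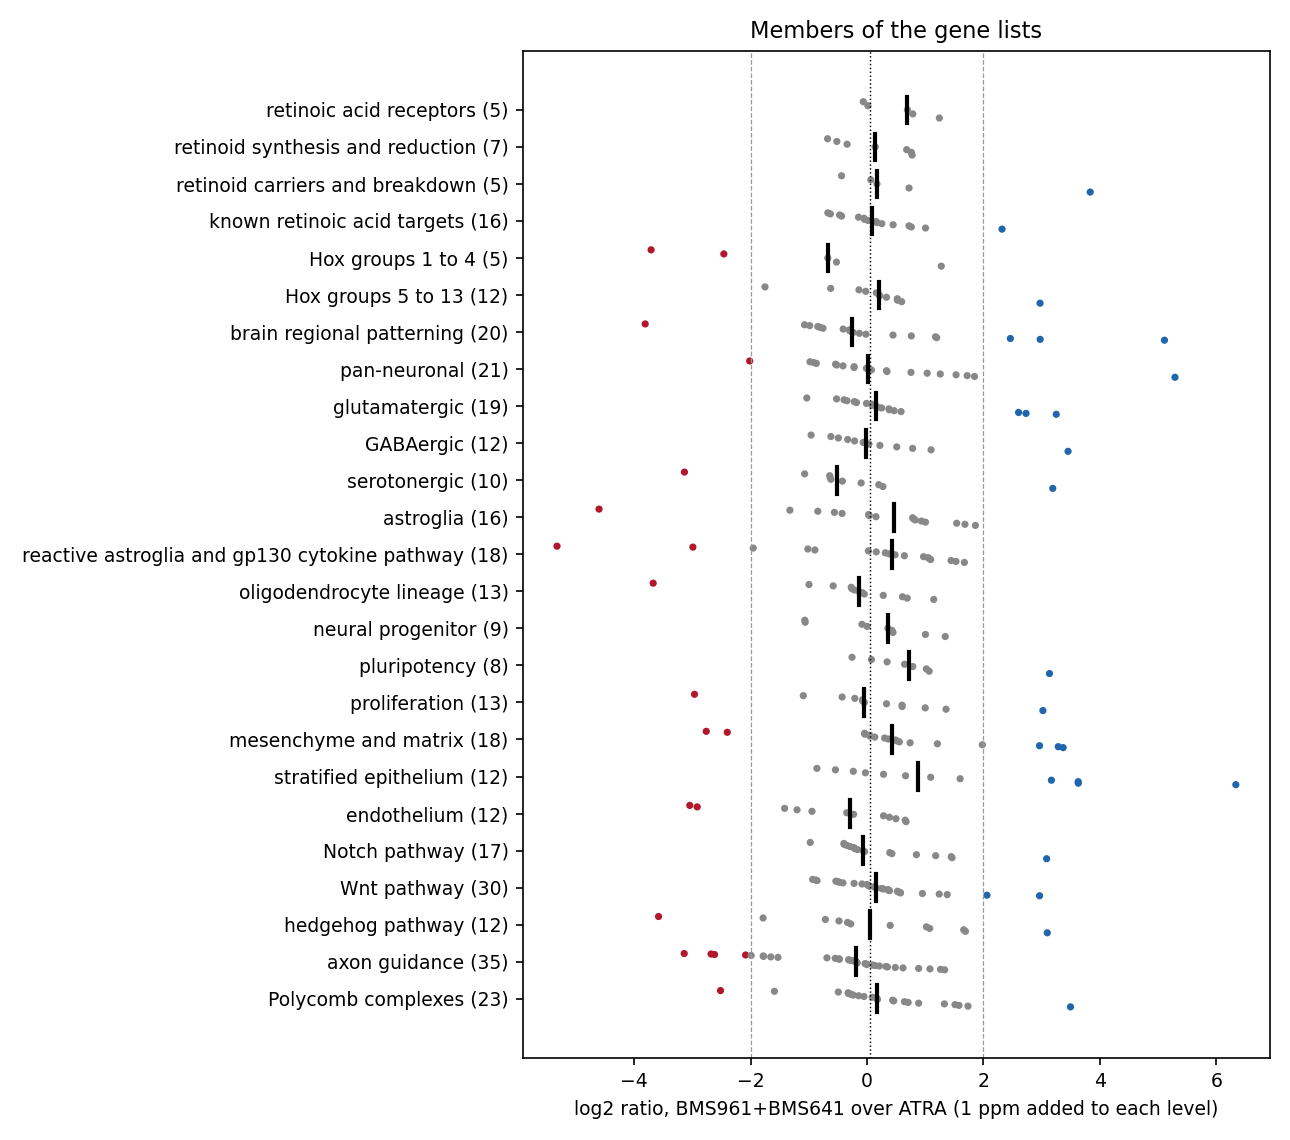
Log2 ratio (BMS961+BMS641 over ATRA, 1 ppm added to each level) of every compared member of 25 gene lists, 1 point per gene, with the number of members in brackets, the list median as a black bar and the median of all genes (0.04) as a dotted line. Dashed lines mark 4-fold. Most list medians lie near 0, and genes beyond 4-fold (coloured) are a minority of every list. They reach 2 of 5 in Hox groups 1 to 4 and 4 of 12 in stratified epithelium.

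Read by lists, the counts beyond 4-fold lay on both sides and were small. Of 38 lists with at least 3 members compared, the epithelial list had the most genes at least 4-fold higher, 4 of 12, and axon guidance the most at least 4-fold lower, 4 of 35. Counts were also high for the size of some small lists. The widely expressed transcripts had 1 higher and 3 lower of 10, the proteasome 3 higher and 1 lower of 15, and the mast cell list 1 of each of 5. Over all compared genes 6.14% were at least 4-fold higher and 5.30% at least 4-fold lower. The members and the direction of these lists were known from earlier work on the same sections, so the counts are a description only.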

How the data were processed

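The 4 spatial sections of mouse brain organoids were made on barcoded poly-T arrays, 1 section per treatment, and the BMS961+BMS641 and ATRA sections were compared. Each deposited table gives a signal for every gene in every spot. By the name of the table, the authors had quantile normalised it within a section. The summed signal of a spot still ran from 26418 to 1153606 with ATRA and from 49658 to 1691743 with BMS961+BMS641. Spots therefore weigh unequally in the mean. With each spot scaled to the same sum, 830 genes were at least 4-fold higher and 713 at least 4-fold lower. Reads were handled on mm9, per the submitters' processing notes. Aligner, counting method and spot filter are not stated in the sources used. All spot columns were averaged per gene and scaled to ppm with Python 3.11.15, numpy 2.4.6 and pandas 2.3.3. A log2 ratio of those signal levels used a pseudocount of 1 ppm. A difference of 4-fold, a log2 ratio of 2 or -2, was the threshold of every count. Sections were split at the median column and then the median row into 4 quadrants, giving 16 pairs. The files hold no counts, so depth per spot and its precision are unknown.

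The members and the 39 gene lists were chosen with earlier results of these data known. Genes were named by a rule: at least 20 ppm in either section, detected in at least 5% of spots of the higher section, quadrants not overlapping, and no predicted, ribosomal protein or mitochondrial gene. The 10 highest and 10 lowest ratios were named, and the same among genes detected in at most 50% of spots. Up to 5 members of each list and any member at least 4-fold different could be named, with 20 genes named whatever their level. Other list members named to show a partner or a level gene were chosen after their values were seen. Upper-case symbols were matched to RefSeq names for 22097 genes, and 121 kept the file's name. Scripts were tested on simulated data. Alternatives covered scaling, the lowest class, another pseudocount or filter, the share of spots and each quadrant left out. Ranks of tied values and leaving out the highest spot were added after seeing the data. Some list members are not reported here.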

Additional observations from a re-analysis of the deposited data

How the results depend on the processing

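Alternatives numbered 19, of which 2 were chosen after seeing the data. Under them the genes at least 4-fold higher numbered 594 to 995 and the genes at least 4-fold lower 239 to 868, against 843 and 728. The value of 239 came from the percent of spots in place of the signal, which also moved the median over all genes to 0.395; with the other alternatives the median lay between -0.036 and 0.143, and the cause was not tested. With each quadrant left out the counts were 839 to 861 and 723 to 745, and the median -0.003 to 0.112. The 100 named genes at least 4-fold different kept their sign in all 1893 values computed for them, of which 1824 stayed beyond 4-fold and 69, in 45 genes, did not. These genes were chosen for large ratios in the same data. Another pseudocount or filter cannot turn a sign, and a left-out quadrant cannot where quadrants do not overlap. The kept signs were therefore largely fixed in advance and are no independent check. Of 38 list medians 18 kept their sign throughout and 20 turned under at least 1 alternative, 4 of them only under the percent of spots, which had shifted all genes upward. The proliferation median of -0.045 became 0.434, and the proteasome median of 0.039 became -0.304, with the lowest class at 0. The medians of the regional patterning, axon guidance, endoderm and Notch lists turned only under the percent of spots, that of the microglial list also over members of at least 20 ppm (to 1.55), and that of the oligodendrocyte list also under ranks of tied values (to 0.043). The pan-neuronal, GABAergic, mast cell and heart medians, all within 0.05 of 0, have no stable sign. With 1 section per treatment, spot signals without counts and an unknown depth, differences between sections cannot be told apart from differences between treatments. No paired analysis was possible because each group holds 1 section.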

Other observations

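In 9 of the genes at least 4-fold higher and 4 of those at least 4-fold lower, a single spot held at least 50% of the signal of the higher section. These genes were chosen after their values were seen. Nnmt, which encodes a nicotinamide methyltransferase, was at 232 ppm with BMS961+BMS641 and 1.58 ppm with ATRA, a log2 ratio of 6.50, but 98.1% of its BMS961+BMS641 signal lay in 1 spot, and without the highest spot of each section the ratio was 1.17. For Nsg1, a neuronal vesicle protein gene, 92.5% lay in 1 spot, and the ratio of 4.09 became 0.61. For Slc25a16, a mitochondrial carrier gene, 97.7% lay in 1 spot, and the ratio of 3.43 became -1.60. For Lrp10, 93.5% lay in 1 spot, and 2.91 became -0.10. On the ATRA side Pbsn had 77.1% in 1 spot, and its ratio of -2.07 became -0.29. Over all compared genes, 54 in each section had at least 50% of their signal in 1 spot.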
